A study of Mus musculus with 6 samples.

Results

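Chemokines are small secreted proteins that guide the movement of leukocytes along a gradient by binding receptors with a chain that crosses the membrane several times. They are named for the spacing of their first cysteines, as CC, CXC and CX3C chemokines. Fibroblasts are a known source of several of them, and their genes are classical targets of the transcription factor NF-kappaB and, for some members, of interferon signalling. The present account follows 10 chemokine genes in mouse fibroblasts. They are Ccl2, Ccl5, Ccl7, Ccl20, Cxcl1, Cxcl5, Cxcl10, Cxcl12, Cxcl16 and Cx3cl1. All probes carrying one of these names, other than control spots, were taken, which gave 13 of the 61307 probes and 10 of the 50090 gene names on the array. Ccl7, Cxcl12 and Cxcl16 each had a pair of probes, and these are given apart as the brighter and the dimmer probe.

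The cells were NIH3T3, an immortalized mouse embryonic fibroblast line, transduced with a retrovirus carrying GFP alone (GFP cells, the control) or SIRT7 fused to GFP. From the SIRT7 cells 2 lines were isolated at confluence as single cell clones, the long, spindle shaped LT7 cells and the small ST7 cells, which grew in aggregates. All 3 groups were grown in the same serum-containing medium, and RNA of 2 replicates per group, taken at different passages of the line, was hybridized to 1-colour Agilent arrays. Each line comes from clones, so a difference between lines cannot be told apart from a difference between clones.

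The arrays labelled ST7 stood apart from the other 4. Between 47.4% and 57.5% of all probes were well above background on the GFP and LT7 arrays and 25.5% and 26.4% on the ST7 arrays, as marked by the scanner software. Sirt7 itself, read by a pair of probes, stayed at background on these arrays. Its brighter probe gave 3125 and 2480 in GFP and 3633 and 2782 in LT7, and the other gave 2594 and 2142 in GFP and 3092 and 2341 in LT7. The GFP and LT7 signals of both probes overlapped, and after the shift described below both LT7 values lay above both GFP values. Whether these probes read the transgene is not given in the sources used here. Whether the arrays labelled ST7 hold RNA of the labelled cells was not tested, so ST7 values throughout are those of the arrays so labelled. Of 8 fibroblast markers (Col1a1, Col1a2, Col3a1, Thy1, Pdgfra, Pdgfrb, Vim, Fn1), all 8 were well above background on both GFP and both LT7 arrays, with a summed signal of 244014 to 251063 in GFP and of 252943 to 267187 in LT7. Col1a1 was saturated on both GFP and both LT7 arrays, at 59779 to 62852, so these sums are capped in part. On the ST7 arrays only Vim, Col1a1 and Col1a2 were well above background, 5 of the 8 were on neither array, and the sum was 15022 and 16553. LT7 replicate 1 was alone in a second scan. A log2 value is given here after subtraction of the 75th percentile of its array, which was a signal of 317 to 384 in GFP and LT7 and of 16.3 and 17.1 in ST7. This shift alone puts a probe at background on all arrays higher in ST7, so that the median log2 change over all probes was 3.72 in ST7 against GFP, 3.59 in ST7 against LT7 and 0.17 in LT7 against GFP. Chemokine changes in ST7 are therefore given first as signals and lower limits.

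Sequences are shown for the pairs of probes that measured 1 gene, since these served to judge whether a difference was seen more than once. The first 30 of the 60 bases are printed, 5′ to 3′, as the scanner files give them. Both Ccl7 probes are assigned to NM_013654. The brighter Cxcl12 probe is assigned to NM_013655 and NM_001012477, and the dimmer to NM_021704, another transcript of the gene. No stretch of 20 bases in any of the 13 probes occurred in a probe of another gene name.
Ccl7, brighter probe: ttctgagaactgttgatgaaatgtgttgat
Ccl7, dimmer probe: gcatggaagtctgcgctgaagcccatcaga
Cxcl12, brighter probe: aggagaaggcagcttcctatatgcagcgtg
Cxcl12, dimmer probe: gaattaatcataaacggaagtttaaatgag

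Promoter sequence, from RefSeq on GRCm38.p6, was at hand for 5 of the 10 genes (Ccl20, Cxcl1, Cxcl10, Cxcl12 and Cx3cl1). The 250 bases before the transcription start are shown for Cxcl1 and Cxcl10, which lay on opposite sides of the control in LT7 as given below. Capitals mark matches, on either strand, to the NF-kappaB consensus (a motif of 10 bases), to the interferon-stimulated response element (ISRE, here 2 copies of TTTC with 2 bases between them) and to the AP-1 motif TGANTCA. The Cxcl1 stretch lies at chr5:90890995-90891244 on the plus strand and the Cxcl10 stretch at chr5:92348890-92349139 on the minus strand.
Cxcl1: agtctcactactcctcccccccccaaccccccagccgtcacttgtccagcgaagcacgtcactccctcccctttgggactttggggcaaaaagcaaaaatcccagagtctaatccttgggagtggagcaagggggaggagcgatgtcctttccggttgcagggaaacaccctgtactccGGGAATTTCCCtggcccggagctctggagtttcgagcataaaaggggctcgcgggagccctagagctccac
Cxcl10: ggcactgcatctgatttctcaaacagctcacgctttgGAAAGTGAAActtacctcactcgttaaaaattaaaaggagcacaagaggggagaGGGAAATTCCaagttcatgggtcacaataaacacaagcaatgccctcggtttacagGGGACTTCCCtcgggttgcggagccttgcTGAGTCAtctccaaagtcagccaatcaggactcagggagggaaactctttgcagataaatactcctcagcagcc
In Cxcl1 the capitals hold 2 overlapping matches to the NF-kappaB consensus, 1 on each strand, which begin 71 and 70 bases before the start. The promoter of Cxcl10, whose name as an interferon-inducible protein reflects its known regulation, held NF-kappaB matches beginning 159 and 103 bases before the start, an ISRE match at 213 and an AP-1 match at 74. Ccl20 had an NF-kappaB match beginning 80 bases before the start, and neither Cxcl12 nor Cx3cl1 had a match to any of the 3 motifs in this window. Over all 32851 promoters of the same length 3.90% held the NF-kappaB consensus, 2.98% the ISRE and 6.75% the AP-1 motif. A match is a description of the letters and shows no binding.

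**Figure D1:**
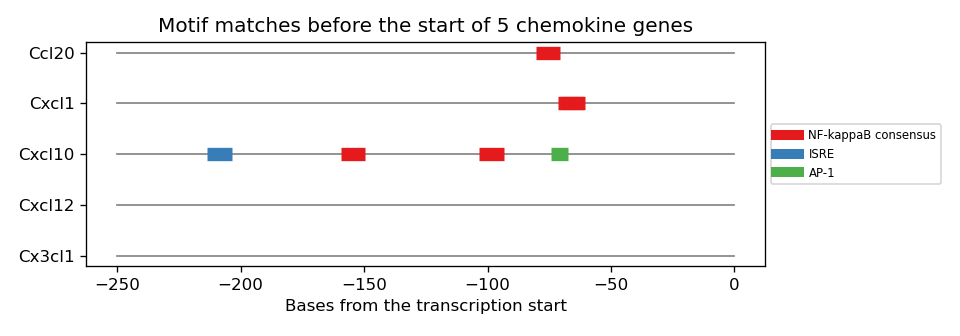
Matches to 3 motifs in the 250 bases before the transcription start of Ccl20, Cxcl1, Cxcl10, Cxcl12 and Cx3cl1, plotted by the distance from the start in bases. Ccl20, Cxcl1 and Cxcl10 hold NF-kappaB matches, Cxcl10 alone holds the ISRE and AP-1 matches, and the lines of Cxcl12 and Cx3cl1 are empty.

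Which of these chemokines did the control fibroblasts express? Of the 13 probes 10, for 8 genes, were well above background on both GFP arrays, and the same 10 were so on both LT7 arrays. None of the 13 was saturated on any array. The other 3 probes, those of Ccl20 and Cxcl16, were near background. Ccl20, the ligand of CCR6, gave 5.33 and 7.72 in the GFP replicates, 4.32 and 4.48 in LT7 and 7.20 and 5.36 in ST7, none of them well above background. The dimmer probe of Cxcl16, the membrane-anchored ligand of CXCR6, was likewise not well above background on any array, with signals between 7.78 and 16.3. Its brighter probe was well above background on 1 array only, LT7 replicate 2, where the signal was 90.6, against 4.10 in LT7 replicate 1, 4.41 and 2.71 in GFP and 2.89 and 3.20 in ST7. A gene measured by 1 of 6 arrays and by 1 of its 2 probes was not taken as expressed.

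**Figure D2:**
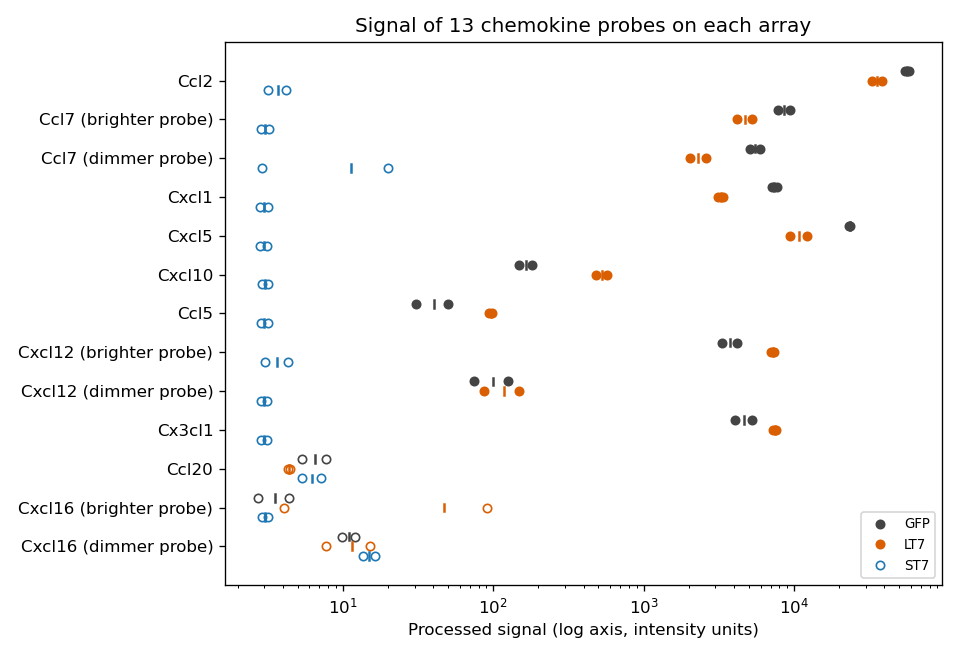
Processed signal (log axis, intensity units) of the 13 chemokine probes on each of the 6 arrays, with vertical ticks at the means of the 2 arrays of a group. Filled points mark groups with both arrays well above background and open points all others. In each of the upper 10 rows the GFP and LT7 points are filled and the ST7 points lie at the left edge, apart from the 19.9 of the dimmer Ccl7 probe on ST7 replicate 2; levels should be compared within a row only.

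The comparison of LT7 with GFP asks how the chemokines differed between the spindle shaped cells labelled as overexpressing SIRT7 and the control. The probes fell on both sides of the control. Ccl2, Ccl7, Cxcl1 and Cxcl5 had lower signals on both LT7 arrays than on either GFP array. Cxcl10, Ccl5, Cx3cl1 and the brighter probe of Cxcl12 had higher signals on both. At an adjusted p under 0.05 limma called 0 of the 13 probes, where it called 0.176% of all probes (108 of 61307). At an unadjusted p under 0.05 it listed 7 of the 13, where 27.2% of all probes were listed. After the shift, the 2 LT7 values lay below both GFP values for 5 of the 10 measured probes and above them for 4. Over the whole array 26852 probes were measured on these 4 arrays, and 16.4% of them lay below and 22.7% above. Since limma with Benjamini-Hochberg adjustment called none of them, the differences below are given as values.

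Among the CC chemokines that recruit monocytes through CCR2, the Ccl2 probe read 54807 and 58582 on the GFP arrays and 32893 and 38427 on the LT7 arrays. The groups did not overlap, and their means were 56695 ± 2669 (SD, n = 2) and 35660 ± 3913. The log2 change of Ccl2 was -0.57 (SE 0.28, adjusted p = 0.27, limma), or 1.49-fold lower. Ccl7, its neighbour on chromosome 11 and a ligand of the same receptor, gave 9409 and 7816 in GFP and 5302 and 4198 in LT7 on the brighter probe. On the dimmer probe it gave 5957 and 5109 in GFP and 2025 and 2608 in LT7. Both Ccl7 probes, whose sequences are shown above, were thus lower on each LT7 array than on either GFP array. Their log2 changes were -0.76 (SE 0.20, adjusted p = 0.10) and -1.17 (SE 0.87, adjusted p = 0.49), or 1.70-fold and 2.24-fold lower. The SE of the dimmer probe also takes in its unlike ST7 signals, 2.91 and 19.9. When limma was fitted to the GFP and LT7 arrays only, the adjusted p was 0.17 for each Ccl7 probe.

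Cxcl1 and Cxcl5 attract neutrophils through CXCR2. The signal of Cxcl1 was 7678 and 7164 in GFP against 3117 and 3386 in LT7. That of Cxcl5 was 23070 and 23765 in GFP against 12124 and 9401 in LT7. For both genes every LT7 value lay well under the lower GFP value. The log2 change was -1.09 for Cxcl1 (SE 0.21, adjusted p = 0.10) and -1.03 for Cxcl5 (SE 0.22, adjusted p = 0.10), which correspond to 2.13-fold and 2.05-fold lower levels.

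Cxcl10 recruits activated T cells through CXCR3. Its signal was low in GFP, at 148 and 181, and was 570 and 486 in LT7. At 3.44-fold over GFP (log2 change 1.78, SE 0.25, adjusted p = 0.10), it had the largest difference from GFP among the 10 measured probes. Ccl5, an attractant of T cells and monocytes, gave 50.1 and 30.8 in GFP and 98.8 and 93.3 in LT7. The GFP replicates of Ccl5 differed by more than those of LT7, yet the groups did not overlap. Its log2 change was 1.39 (SE 0.23, adjusted p = 0.10), or 2.62-fold higher.

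Cxcl12, the ligand of CXCR4 and a typical product of stromal cells, differed between its probes. The brighter probe gave 4213 and 3308 in GFP and 7351 and 7066 in LT7, a 2.07-fold difference (log2 change 1.05, SE 0.23, adjusted p = 0.10). On the dimmer probe the signals were 126 and 74.5 in GFP and 86.7 and 150 in LT7. Here the groups overlapped, and the change was 0.33 (SE 0.37, adjusted p = 0.66). The pair is assigned to different transcripts, and whether those transcripts differed from each other between the lines was not tested. Cx3cl1 (fractalkine), made as a membrane protein and shed to attract cells with CX3CR1, gave 5253 and 4058 in GFP and 7592 and 7292 in LT7. Both LT7 values of Cx3cl1 were above both GFP values, a 1.73-fold difference (log2 change 0.79, SE 0.19, adjusted p = 0.10).

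The calls for LT7 depended on the setting, and the reason was not tested. After probes were dropped that were not well above background on both arrays of any group, 0 of the 10 member probes left were called. With an intensity trend in limma's variance the probes of Cxcl10, Cxcl12 (brighter) and Cx3cl1 were called up and those of Ccl7 (brighter), Cxcl1 and Cxcl5 down, each with an adjusted p of 0.039. Under this setting 16.3% of all probes were called up and 0.995% down. Of the gene lists described further on, it called 6 of the other chemokine ligands up and 0 down, 7 receptors up and 0 down, 1 cytokine gene up and 2 down, 1 gene up and 1 down in each of the interferon and the processing lists, and 0 NF-kappaB genes. Among the markers it called 2 fibroblast, 4 endothelial and 2 epithelial genes up and 0 down, and 2 macrophage genes up and 1 down. Normexp background correction called the same 6, with adjusted p from 0.016 to 0.048, where 0.326% of all probes were called in each direction. Over all alternatives run the adjusted p of these 6 probes ranged from 0.016 to 0.83. A fold rule after the study's methods was also applied. It was read here as a log2 ratio to the GFP mean of at least 0.8 in both replicates, with an average above 1, since the methods state neither the log scale nor how the control replicates were combined. It took Ccl5, Cxcl10 and Cxcl12 (brighter) as up and Ccl7 (dimmer), Cxcl1 and Cxcl5 as down. By that rule 2.89% of all probes were up and 3.02% down.

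With each array left out in turn, the change of 9 of the 10 probes kept its direction, and it lay between 1.52 and 2.05 for Cxcl10, between -1.20 and -0.98 for Cxcl1 and between -1.18 and -0.89 for Cxcl5. The exception was the dimmer Cxcl12 probe, at -0.11 without LT7 replicate 2. Without LT7 replicate 1, the array of the second scan, the change was 1.72 for Cxcl10, 1.40 for Ccl5, 1.07 for Cxcl12 (brighter) and 0.81 for Cx3cl1, and -0.98 for Cxcl1, -1.17 for Cxcl5 and -0.41 for Ccl2. That array also carried a higher spike-in signal than the others. Scaling on the spike-in RNAs moved the median of all probes to -2.00, and with it the changes of Cxcl10, Ccl5, Cxcl12 and Cx3cl1 became negative. Relative to that median they were 1.62 for Cxcl10, 1.22 for Ccl5, 0.88 for Cxcl12 (brighter) and 0.62 for Cx3cl1. Both scalings subtract 1 value per array, so these had to equal the changes relative to the median of the main setting. Their likeness is no further check.

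**Figure D3:**
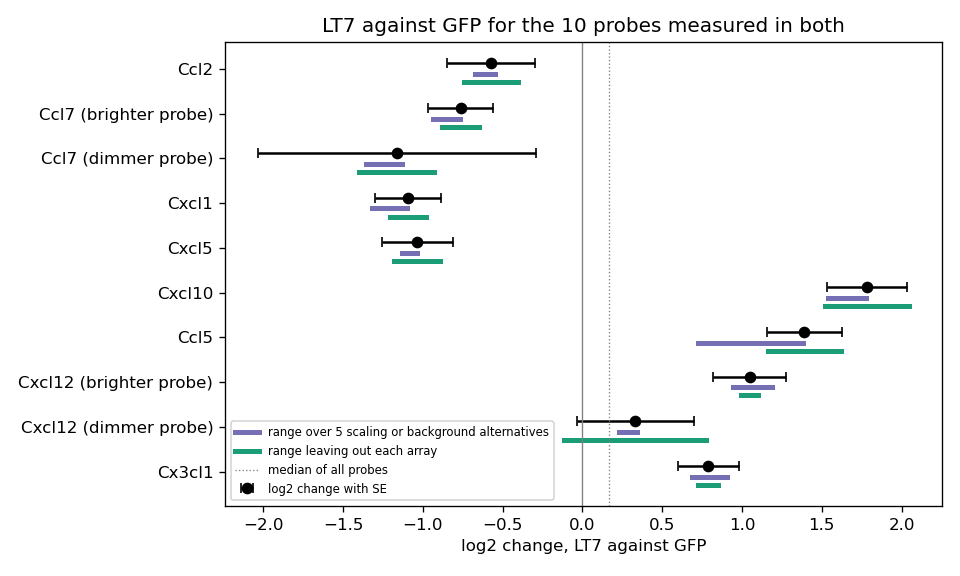
The log2 change in LT7 against GFP of the 10 probes measured on all 4 arrays, as points with the standard error. The bars give the range over 5 scaling or background alternatives and over the fits that leave out 1 array each, and the dotted line is the median of all probes, 0.17. Ccl2, Ccl7, Cxcl1 and Cxcl5 lie left of 0 and Cxcl10, Ccl5, Cxcl12 (brighter) and Cx3cl1 right of it; spike-in scaling is not drawn.

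On the arrays labelled ST7 nearly all chemokine probes read at background. Of the 10 probes well above background on both GFP arrays, 9 failed to stand above background on any ST7 array, as did 53.0% of all probes measured in GFP. Among probes with a mean GFP signal of at least 1000 the count was 6 of 7, against 48.0% of all. The ST7 signals of these 9 ran from 2.81 to 4.29. The exception was the dimmer Ccl7 probe, with 2.91 on ST7 replicate 1 and 19.9, well above background, on replicate 2. Sirt7 and 5 of the 8 fibroblast markers were also at background on the same arrays, while Vim, Col1a1 and Col1a2 were not, and their part in this result was not tested. Less RNA per cell, fewer cells of a type in the culture and less labelled RNA on an array cannot be told apart in bulk samples.

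Where a group had no array well above background, a lower limit of the fold was set. The limit sets the brighter group's mean against a floor in the dimmer group. On each array the floor is the dimmest value that the scanner software still marked as well above background, or the probe's own value where that is higher, all after the shift. Ccl2, with 4.21 and 3.20 on the ST7 arrays, lay at least 199-fold below GFP and at least 134-fold below LT7. Cxcl5, at 2.83 and 3.14, lay at least 82.2-fold below GFP and at least 40.1-fold below LT7. The limits against GFP were 30.1-fold for the brighter Ccl7 probe, 26.0-fold for Cxcl1, 16.2-fold for Cx3cl1 and 13.1-fold for the brighter Cxcl12 probe. Against LT7 they were 17.7-fold, 12.2-fold, 28.0-fold and 27.1-fold in the same order. The adjusted p of these 6 probes was 1.7e-05 against GFP, and it did not exceed 0.00036 under any alternative. The limits belong to the main setting. With normexp background correction the log2 changes against GFP were -7.48 for Ccl2, -6.30 for Cxcl5 and -4.78 for Ccl7 (brighter). They were -4.61 for Cxcl1, -3.95 for Cx3cl1 and -3.45 for Cxcl12 (brighter). As folds, all 6 are smaller than the limits above, and the same held against LT7. For the dimmer Ccl7 probe, well above background on 1 ST7 array, the log2 change from GFP was -5.10 (SE 0.87, adjusted p = 0.0024). That value averages a pair of unlike ST7 arrays, and it was -3.75 without ST7 replicate 1 and -6.46 without ST7 replicate 2.

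The dim chemokines could not be followed that far. Cxcl10, at 2.92 and 3.20 in ST7, was at least 1.98-fold lower than in LT7 (adjusted p = 0.00010), while its GFP level lay under the limit set by the ST7 arrays after the shift. For Ccl5 and the dimmer Cxcl12 probe no limit could be set against either group. In all, limma called 8 of the 13 probes down in ST7 against GFP, where 19.8% of all probes were called down, and 4 up, where 70.7% were called up. The 4 called up were Ccl5, Ccl20 and both probes of Cxcl16, none of which was well above background on an ST7 array. For Ccl5 (0.69, SE 0.23, adjusted p = 0.035) the direction turned with the scaling, since its signals were 2.85 and 3.16 in ST7 against 50.1 and 30.8 in GFP, and without scaling the change was -3.71. The up calls of Ccl20 and of the brighter and the dimmer Cxcl16 probe (4.35, 4.21 and 4.84) rested on the scaling too, since the lowest value over 5 scaling or background alternatives was -0.05, -0.18 and 0.44. Neither without scaling nor with spike-in scaling was any of the 13 probes called up, while 10 and 9 were called down. Against LT7, 9 probes were called down and 2 up (Ccl20 and the dimmer Cxcl16 probe), where 19.7% and 71.0% of all probes were.

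Many chemokine genes lie side by side, and the neighbours of the members were read on the same arrays, in the gene order of GRCm38.p6. Some of these neighbours were measured in GFP and LT7 and others were not. Over all probes 47.4% to 57.5% were well above background on a GFP or LT7 array. Next to Ccl2 and Ccl7, Ccl11 and Ccl1 were not well above background on any array, and Ccl12 was well above it on 1 GFP array only. Ccl8, in contrast, had 243 and 238 in GFP and 172 and 103 in LT7. The direction of Ccl8 was thus that of Ccl2 and Ccl7, with a log2 change of -0.75 (SE 0.28, adjusted p = 0.16). Between Cxcl5 and Cxcl1 lay Ppbp, a chemokine of platelets, with 258 and 253 in GFP and 334 and 247 in LT7, and its values overlapped. Pf4, Cxcl3 and Cxcl15 of the same stretch and Cxcl2 beyond it were not well above background on any array. Cxcl9, the interferon-induced neighbour of Cxcl10, was also not well above background on any array, with at most 8.56. Beside Ccl5, Ccl9 gave 144 and 94.0 in GFP and 134 and 89.2 in LT7, and Ccl6, Ccl3 and Ccl4 were not well above background on both arrays of any group. Of the genes next to Cx3cl1, Ccl17 had 71.3 and 53.6 in GFP and 119 and 96.1 in LT7, with a change of 0.89 (SE 0.76, adjusted p = 0.55), and Ccl22 was at background. The SE of Ccl17 also takes in its unlike ST7 signals, 15.9 and 3.26.

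**Figure D4:**
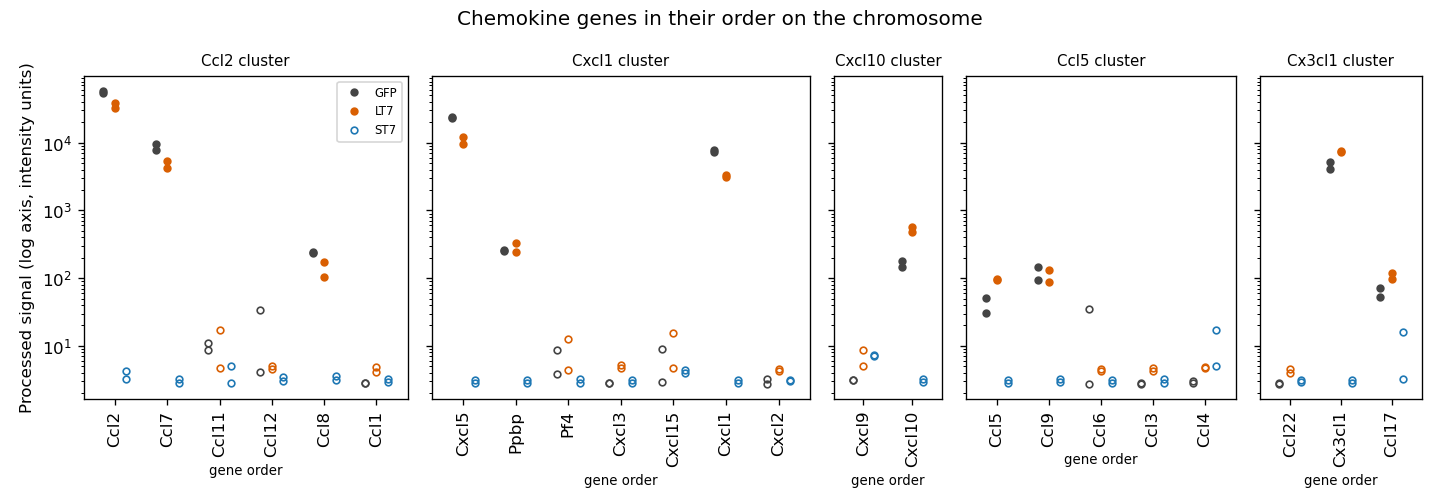
Processed signal (log axis, intensity units) of chemokine genes in their order on the chromosome, named after the member at the centre of each search, with the 2 arrays of each group as points. Filled points mark groups with both arrays well above background. Ccl2, Ccl7 and Ccl8 lie lower in LT7 than in GFP, Cxcl1 and Cxcl5 likewise with Ppbp overlapping between them, and several neighbours lie at background; levels should be compared within a gene only.

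Over all other chemokine ligands, 28 of 30 were found on the array by name. On both GFP arrays 6 of them were well above background, and on both ST7 arrays 0. limma called 0 of the 28 in LT7 against GFP, with a median change of 0.58 that rests mostly on genes at background; over the 6 measured genes the median was 0.07. Ccl27a, a chemokine of skin, gave 216 and 190 in GFP and 195 and 219 in LT7, so that the groups overlapped. None of the 28 was well above background on both ST7 arrays.

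The receptors of these ligands were mostly not measurable. Of 24 receptor genes 5 were well above background on both GFP arrays, 3 on both LT7 arrays and 4 on both ST7 arrays. Ccr2, Cxcr3, Cxcr6, Cxcr1 (Il8ra on the array) and Cxcr2 (Il8rb on the array) were at background on all 6 arrays. Among them, Ccr2, Cxcr3, Cxcr6 and Cxcr2 are receptors of Ccl2, Cxcl10, Cxcl16, Cxcl1 and Cxcl5. Cxcr7, an atypical receptor that binds and removes Cxcl12, was an exception. Its GFP signals of 3213 and 2877 overlapped those of LT7, 3999 and 2837. After the shift the LT7 values, 3.55 and 3.16, lay above those of GFP, 3.07 and 3.15. In ST7 it read 2.93 and 3.20, at least 10.7-fold below GFP (adjusted p = 1.7e-05). Ccr7 had 370 and 203 in GFP and 106 and 130 in LT7, with a change of -1.12 (SE 0.29, adjusted p = 0.10). Cxcr4, the signalling receptor of Cxcl12, ran the other way round. At 4.08 to 6.55 it stayed at background on the GFP and LT7 arrays, and it gave 64.2 and 68.1 in ST7, at least 126-fold higher than in GFP relative to the 75th percentile. Ccr9 likewise gave 90.8 and 97.2 in ST7 against 9.18 to 17.4 on the other arrays, or at least 170-fold higher on the same scale. The mean signals were 66.2 in ST7 against 5.82 in GFP for Cxcr4 and 94.0 against 11.7 for Ccr9, and the limits are larger than the ratios of these signals because the 75th percentile was lower on the ST7 arrays.

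Among the regulators, all 15 genes of the NF-kappaB pathway were well above background on the GFP and LT7 arrays, and limma called 0 of them in LT7 against GFP, with a median change of 0.06. Rel, one of the transcription factor subunits, gave 25.7 and 22.8 in GFP and 39.4 and 43.9 in LT7 (log2 change 0.88, adjusted p = 0.10). Tnfaip3, the inhibitor known as A20, gave 125 and 84.2 in GFP and 197 and 135 in LT7. The kinase subunits Chuk and Ikbkb lay on opposite sides of GFP, at -0.44 and 0.44. On both ST7 arrays 2 of the 15 were well above background. These were Nfkbia, the inhibitor IkappaB-alpha, with 1429 and 1207 in ST7 against 17534 and 15411 in GFP, and Nfkb2, with 73.6 and 65.9 against 2537 and 2514. After the shift Nfkbia was instead higher in ST7 than in GFP (log2 change 0.75, SE 0.21, adjusted p = 0.019, limma). Nfkb2 stayed lower, at -0.78 (SE 0.23, adjusted p = 0.020). The direction of Nfkbia thus turned with the shift.

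Of 17 cytokines and receptors that drive chemokine genes, 15 were well above background in GFP and 0 on both ST7 arrays. In LT7 limma called 0 of them, with a median change of -0.12. Of the 13 measured on both GFP and both LT7 arrays, 6 were higher and 7 lower in LT7, with a median of -0.06. Among genes well above background in GFP or LT7 the 4 with the largest differences were all lower. The next in size, Il1rap and Il1r1, were higher, at 0.61 each. Il6 gave 725 and 703 in GFP and 308 and 239 in LT7 (log2 change -1.30, SE 0.22, adjusted p = 0.10). Il1a, which encodes interleukin 1 alpha, gave 34.5 and 22.1 in GFP and was not well above background in LT7. Tlr2, a receptor for bacterial lipoproteins, gave 6247 and 4551 in GFP and 2903 and 3431 in LT7 (-0.66, SE 0.23, adjusted p = 0.15), and Tnfrsf1b, a TNF receptor, changed by -0.75 (SE 0.19, adjusted p = 0.10). Il6, Il1a, Tlr2 and Tnfrsf1b had no overlap of GFP and LT7 signals, whereas Il1rap and Il1r1 did. Il1rap gave 326 and 333 in GFP and 678 and 327 in LT7. Il1r1 gave 3073 and 2793 in GFP and 5710 and 3051 in LT7.

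Of 11 genes of interferon signalling, which drives Cxcl10, 9 were well above background on both GFP arrays and 1 on both ST7 arrays. In LT7 limma called 0, with a median change of 0.27. Irf1, a transcription factor of this pathway, gave 4984 and 3647 in GFP and 7560 and 4771 in LT7 (log2 change 0.59, adjusted p = 0.23). The signals overlapped, and after the shift both LT7 values lay above both GFP values. Stat2 changed by 0.68 and Ifnar2 by -0.49, with adjusted p of 0.32 and 0.34. Ifih1, a sensor of double-stranded RNA, gave 17.5 and 16.7 in GFP and was not well above background in LT7. Ifnb1, which encodes interferon beta, was at background on all 6 arrays.

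Of 7 genes that cleave chemokines or control the life of their mRNA, 6 were well above background in GFP and in LT7, and limma called 0 in LT7, with a median change of 0.14. Mmp9 gave 406 and 248 in GFP and 841 and 813 in LT7 (log2 change 1.48, SE 0.24, adjusted p = 0.10). Mmp2, a protease that trims Ccl7 and Cxcl12, gave 11277 and 8668 in GFP and 5977 and 5506 in LT7 (-0.69, SE 0.19, adjusted p = 0.10). Zfp36, which speeds the decay of AU-rich mRNAs, gave 782 and 546 against 507 and 278 (-0.70, adjusted p = 0.24). Elavl1, which stabilizes such mRNAs, was well above background on all 6 arrays, reading 5453 and 6481 in the control, 7528 and 6201 in LT7 and 8906 and 11207 in ST7. Dpp4, which clips Cxcl12 and Cxcl10, was well above background only on the ST7 arrays, with 20.7 and 23.5.

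**Figure D5:**
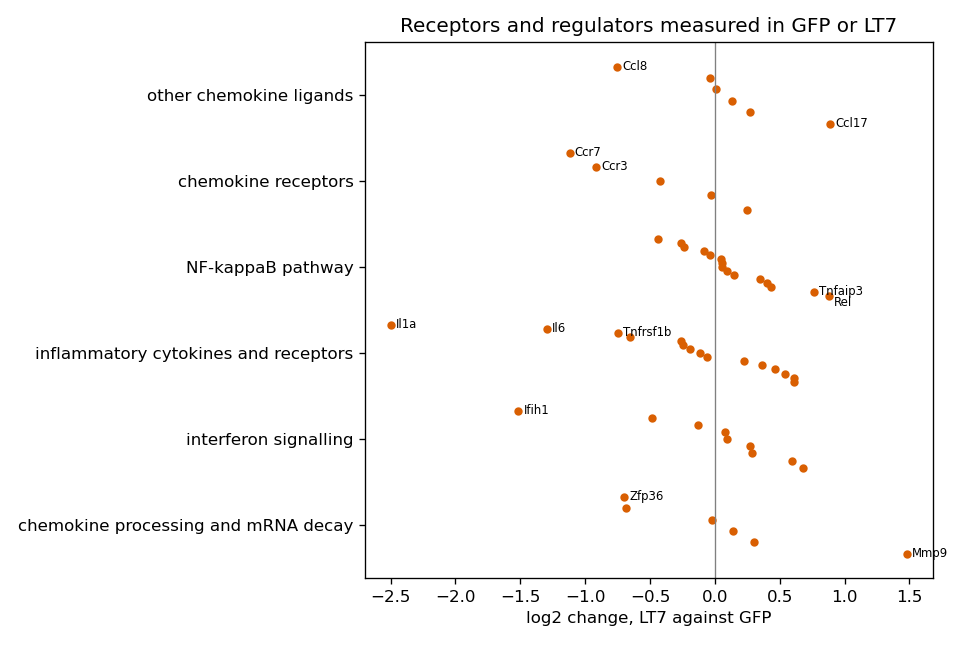
The log2 change in LT7 against GFP of other chemokines, receptors and regulators, 1 point for the brightest probe of each gene that was well above background on both GFP or both LT7 arrays. The NF-kappaB genes gather around 0, and the genes with the lowest values are Il1a, Ifih1 and Il6; no gene shown passed limma's test fitted without the intensity trend.

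Other cell types that make chemokines were looked for with their markers. Of 8 macrophage markers 3 were well above background on both GFP and both LT7 arrays (Cd14, Cd68 and Csf1r), and 0 on an ST7 array. The list summed to 1047 and 1227 in the control, 636 and 684 in LT7 and 37.5 and 41.2 in ST7. The defining markers Ptprc, Emr1 and Itgam, with Lyz2 and Fcgr1, were not well above background on any array. Cd14, a co-receptor of Tlr4 that fibroblasts can also make, gave 967 and 852 in GFP and 313 and 343 in LT7 (log2 change -1.37, SE 0.20, adjusted p = 0.10, limma). Cd68 went the other way, with 113 and 68.4 in GFP and 215 and 188 in LT7 (1.29, SE 0.24, adjusted p = 0.10). Csf1r, at 129 and 111 in GFP and 133 and 81.1 in LT7, overlapped. Of 6 endothelial markers only Vwf was well above background on both GFP arrays, with 22.5 and 23.8, and the list summed to 32.6 to 41.7 in GFP and LT7 and to 19.8 and 22.4 in ST7. Of 7 epithelial markers 1, Krt8, was well above background on both GFP and both LT7 arrays, and 3, Krt18, Dsp and Epcam, were on both ST7 arrays. Their sum was 85.2 to 167 in GFP and LT7 and 2171 and 1975 in ST7, where Krt18 alone gave 1881 and 1755, while Cdh1 was at background on all arrays. The part of these cells in the chemokine values was not tested.

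For members measured in GFP and LT7 the gene with the most similar profile over the 6 arrays was found, as the smallest Euclidean distance between log2 values centred on their own means, among 16121 probes with a coding RefSeq accession. The nearest to Ccl7 was Mmp2, at a distance of 0.33, and the nearest to Cxcl5 was Sod2, at 0.64, with 36312 and 32667 in GFP and 18507 and 19106 in LT7. Cox5a was nearest to Ccl2 (0.42) and Bdh2 to Cxcl1 (0.45). For the brighter Cxcl12 probe it was Glis1 (0.32) and for Cx3cl1 the clone-named gene E130112L23Rik (0.23). All 6 of these genes had ST7 signals between 2.87 and 3.86, so the gap between ST7 and the other arrays makes up most of each profile.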

How the data were processed

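RNA from GFP, LT7 and ST7 cells (n = 2 each) was labelled with Cy3 and hybridized to 6 arrays of 1 slide. The deposited scanner files give an intensity per spot, which the authors' Feature Extraction 10.5.1.1 had background subtracted and detrended. No scaling between arrays had been applied. The deposited series matrix holds log2 values after the authors' 75th percentile shift in GeneSpring. They matched the values computed here on GFP and LT7 arrays and were offset by a nearly constant amount on ST7 arrays.

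Here the log2 of the processed signal was taken, outlier spots were dropped, replicated spots were averaged and every array was shifted by its own 75th percentile. limma 3.58.1 (R 4.3.3) was fitted to all 6 arrays, with Benjamini-Hochberg adjustment over 61307 probes. It was tested on simulated data. The fold changes are on this scale. The number of arrays limits the precision. SEs and p-values rest on a spread between passages that is shared by all 3 groups. In LT7 against GFP they therefore also take in the spread of the ST7 arrays. Members and lists were chosen with earlier results of these data known. All members are named. Of each other list, taken at its brightest probe per gene, up to 4 genes with the largest LT7 change and up to 2 measured in ST7 with the highest change are named, and others serve as neighbours, list members or markers. Alternatives covered scaling, background correction, dim probes, the arrays fitted, the variance trend, pairing and single arrays. The profile matches of Ccl5 and Cxcl10 are not reported here.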

Additional observations from a re-analysis of the deposited data

How the results depend on the processing

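In LT7 against GFP 0 member probes were called, and 6 were called by the fold rule, with an intensity trend and with normexp background correction. The count was 0 to 1 when single arrays were left out, the 1 being the brighter Cxcl16 probe without LT7 replicate 1 (4.86, adjusted p = 0.026), which then rests on 1 LT7 array whose spread was assumed equal to that of the other groups. Counts of 12 and 11 in the ST7 comparisons stayed within 1.5 times in all alternatives run, but their split did not. Against GFP, 4 up and 8 down became 0 and 10 without scaling, 0 and 9 with spike-in scaling, 2 and 10 with quantile normalization, 1 and 8 with the filter on dim probes and 6 and 7 with normexp. Against LT7, 2 up and 9 down became 0 and 10, 0 and 8, 2 and 9, 0 and 9, and 5 and 8 in the same order.

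Deviations of arrays with the same replicate number correlated at 0.086 for GFP with LT7 and at -0.03 for LT7 with ST7. For GFP with ST7 the correlation was 0.33. With the number as a replicate block, 0, 11 and 11 probes were called in LT7 against GFP, ST7 against GFP and ST7 against LT7.

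Among probes well above background in GFP or LT7, changes that turned sign in LT7 did so with scaling on the spike-in RNAs, which gave -0.78 for Ccl5, -0.39 for Cxcl10, -1.12 for Cxcl12 (brighter), -1.84 for Cxcl12 (dimmer) and -1.38 for Cx3cl1, apart from the dimmer Cxcl12 probe, at -0.11 without LT7 replicate 2 and 0.78 without LT7 replicate 1. Of the probes at background in both groups, the dimmer Cxcl16 probe went from 0.09 to -2.08 with spike-in scaling and to -0.45 at the lowest when single arrays were left out. In ST7 against GFP, Ccl5 was at -1.25 with the percentile taken over probes measured on each of the 6 arrays, -3.71 without scaling, -2.46 with quantile normalization and -3.54 with spike-in scaling. Normexp gave 0.44 for Cxcl10 and 0.91 for Cxcl12 (dimmer) in ST7 against GFP, and 0.92 for Ccl5 and 0.68 for Cxcl12 (dimmer) in ST7 against LT7. The brighter Cxcl16 probe, at 1.64 in ST7 against LT7, was at -0.29, -2.66, -1.67 and -0.42 with the other percentile, no scaling, quantile normalization and spike-in scaling, and ranged from -0.65 without LT7 replicate 1 to 3.92 without LT7 replicate 2. Each of these probes was dim or at background in ST7. The cause was not tested.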
